A study of Caenorhabditis elegans with 2 samples.

Results

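Of the 3000 strongest peaks of eGFP-tagged SNPC-4 in Caenorhabditis elegans, 794 had their summit inside an autosomal protein-coding gene and away from every listed gene start. They were chosen by the pooled signal, as the 3000 peaks of highest signal among 30000 in the ce11 list made from both replicates. From these were kept the autosomal summits that lie within the span of a protein_coding gene and have no 5′ end of a protein_coding, snRNA, snoRNA, tRNA, miRNA, rRNA, spliced leader, SmY, RNase P, RNase MRP or Y RNA gene within 300 bp. Summits at 4.5 to 7.0 Mb and at 13.5 to 17.2 Mb of chromosome IV, where 21U-RNA genes are dense, were left out. By the same rule for signal, 608 of the 3000 lay within 300 bp of an autosomal protein-coding 5′ end and of no small RNA gene. A further 542, called intergenic below, lay on the autosomes outside every protein_coding gene, with no listed 5′ end within 300 bp. The 608 and the 542 also leave out those regions of chromosome IV, which held 270 of the 3000. Of the 794, 432 had their summit in an intron and 362 in an exon of any annotated transcript (genes from Ensembl 115, WBcel235, the sequence of ce11). Because the signal chose these peaks, their signal, rank and presence in the replicate lists are given as a description, with no test.

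The data are ChIP-seq, in which protein-bound chromatin fragments are pulled down and sequenced, from whole mixed-sex L4 larvae of strain OP179. The strain's genotype is unc-119(ed3) III; wgIs179, in which wgIs179 is an integrated transgene that supplies eGFP-tagged snpc-4, and the listed genotype names no mutation of the native snpc-4 gene. The 2 biological replicates form a single group, so conditions could not be compared and no p-value is given. No control sample was analysed here, and the number of reads per sample is unknown.

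SNPC-4 is a DNA-binding subunit of the worm form of SNAPc, the complex that recognises the promoters of small nuclear RNA genes and recruits RNA polymerase II or III to them. In C. elegans it also acts at the genes of piRNAs, called 21U-RNAs. A ChIP peak does not tell direct contact with DNA from contact through other proteins. Introns of this species are mostly short and rich in A and T, while coding exons are richer in G and C.

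The summit sequences below show the short words that recurred at the intron summits. The words GCGGAACC and GGCCGACA came from earlier work on these same peaks, so their presence is a description and supports nothing by itself. All windows are 101 bases of the RefSeq genome sequence (WBcel235), plus strand, centred on the summit, with the named word in capitals on whichever strand it was found. GGTTCCGC is GCGGAACC read on the other strand, and TGTCGGCC is GGCCGACA read on the other strand. The first 3 summits carry both words, and the other 3 carry 1 of them.
clec-80, both words, chrIV:2825854-2825954: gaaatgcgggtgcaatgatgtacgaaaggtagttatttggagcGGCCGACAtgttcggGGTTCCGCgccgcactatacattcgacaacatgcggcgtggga
C18D11.1, both words, chrIII:11818021-11818121: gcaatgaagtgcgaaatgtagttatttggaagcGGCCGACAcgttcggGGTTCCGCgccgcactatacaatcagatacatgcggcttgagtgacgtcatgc
chil-14, both words, chrV:1455401-1455501: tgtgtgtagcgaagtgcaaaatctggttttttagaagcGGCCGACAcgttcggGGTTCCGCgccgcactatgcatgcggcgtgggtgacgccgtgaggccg
C33B4.4, GCGGAACC alone, chrII:11376901-11377001: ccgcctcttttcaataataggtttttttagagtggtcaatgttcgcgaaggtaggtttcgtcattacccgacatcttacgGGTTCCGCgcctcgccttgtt
sre-45, GCGGAACC alone, chrII:13521998-13522098: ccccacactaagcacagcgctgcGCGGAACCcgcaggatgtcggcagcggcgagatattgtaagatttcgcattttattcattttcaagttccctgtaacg
CD4.11, GGCCGACA alone, chrV:5587994-5588094: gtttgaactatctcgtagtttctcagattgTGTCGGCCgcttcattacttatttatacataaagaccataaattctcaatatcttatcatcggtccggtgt

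A further set shows the GA repeat in introns, followed by a pair of the strongest intron summits, which lie upstream of unclassified ncRNA genes and hold none of the 3 words, and by the strongest coding-exon summit. In the first 2 sequences the capitals mark overlapping copies of GAGAGAGA on the minus strand.
T26A8.4, GAGAGAGA, chrIV:8432194-8432294: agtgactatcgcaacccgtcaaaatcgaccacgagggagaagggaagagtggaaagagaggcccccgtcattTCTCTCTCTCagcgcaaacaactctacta
daf-5, GAGAGAGA, chrII:14040512-14040612: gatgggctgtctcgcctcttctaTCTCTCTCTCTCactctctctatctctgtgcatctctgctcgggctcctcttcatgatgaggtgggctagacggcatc
CD4.11, upstream of CD4.18, chrV:5587181-5587281: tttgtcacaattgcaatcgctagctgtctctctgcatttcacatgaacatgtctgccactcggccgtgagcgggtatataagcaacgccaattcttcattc
W01D2.3, upstream of W01D2.8, chrII:14801416-14801516: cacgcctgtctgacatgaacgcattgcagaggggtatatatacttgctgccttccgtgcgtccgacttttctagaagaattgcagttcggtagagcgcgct
unc-33, coding exon, chrIV:3519572-3519672: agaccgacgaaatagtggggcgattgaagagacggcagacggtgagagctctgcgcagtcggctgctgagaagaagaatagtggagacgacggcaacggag

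In clec-80, which encodes a C-type lectin, in C18D11.1 and in chil-14, which encodes a chitinase-like protein, GGCCGACA was followed by GGTTCCGC after the same gap of 7 bases. This pairing was looked for across the genome after the sequences had been read. The same-strand order GGCCGACA and then GGTTCCGC, within 50 bases, occurred with a gap of 7 bases 248 times. Gaps of 6, 8 and 9 bases occurred 4, 2 and 1 times, and gaps of 25, 49 and 50 bases 1 time each. No repeat annotation was used here, so whether the 248 pairs are copies of a known element was not tested, and counts over them may not be of independent sequences. Of the 248 pairs, 77 lay at intron positions that the rule allows, 1 at an allowed exon position, 92 elsewhere on the autosomes and 78 on the X chromosome. Of the 77 intron pairs, 19 (24.7%, exact 95% interval 15.6 to 35.8) lay within 100 bp of a strong summit (one of the 3000), against 24 of the 92 other autosomal pairs (26.1%) and 45 of the 78 X pairs (57.7%). Among the gene-body peaks, 16 of 432 intron summits (3.70%) and 0 of 362 exon summits had such a pair, and 0 of the 16 had a near-identical copy of the whole 100 bp either side elsewhere (90% identity or more over at least 80% of its length). The 16 ranged in pooled signal between 9.69 and 52.3, with a median of 14.9, and 4 had a match in the upper 3000 of replicate 1 and 11 in the upper 3000 of replicate 2. Their hosts included the TRP channel gene osm-9, the talin gene tln-1 and the chemoreceptor gene srsx-35.

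Each word was also more frequent at intron summits than beside them. GCGGAACC lay within 100 bp of 37 of 432 intron summits (8.57%, 6.10 to 11.6) and of 3 of 362 exon summits (0.829%, 0.171 to 2.403), on either strand, against 6.35% of the 2206 other strong peaks and 6.0% of all 3000. Windows centred 1000 bp to the left and right of the intron summits held it in 1 and 0 cases. GGCCGACA was at 32 intron summits (7.41%, 5.12 to 10.3) and 3 exon summits (0.829%), against 6.66% of the other strong peaks and 6.07% of all 3000, with 5 and 3 of the flanking intron windows holding it. GAGAGAGA was at 37 intron summits (8.57%, 6.10 to 11.6) and 5 exon summits (1.38%, 0.450 to 3.19), against 6.07% of the other strong peaks and 5.87% of all 3000, with 9 and 10 flanking intron windows. Among the 542 intergenic peaks 3.32% held GCGGAACC, 7.75% GGCCGACA and 10.2% GAGAGAGA, so the last 2 words were a little less frequent at intron summits than there. Among the 608 promoter peaks the shares were 1.48%, 1.81% and 4.77%. Together, 86 of 432 intron summits and 11 of 362 exon summits held at least 1 of the 3, a count that was not made for the other strong peaks. Neither CTGTTTCA, the core found upstream of 21U-RNA genes (2 intron and 5 exon summits), nor GTTCGANNC, the core of the tRNA B box (8 and 5), exceeded 2% of either class. Their shares of all 3000 were 1.23% and 4.5%. A run of AAAAAAAA was at 74 intron summits (17.1%), against 13.5% of all 3000 and against 109 and 91 of the intron summits' flanking windows. TATAAA was at 54 intron summits (12.5%), against 13.2% of all 3000 and against 72 and 76 flanking windows.

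Seen from the sequence side, the same words were followed to all their copies in the genome. The genome holds 388 copies of GCGGAACC at allowed intron positions, of which 45 (11.6%, 8.59 to 15.2) had a strong summit within 100 bp. Of 224 copies at allowed exon positions, 4 did (1.79%, 0.489 to 4.51). For GGCCGACA the counts were 48 of 816 intron copies (5.88%, 4.37 to 7.72) and 3 of 258 exon copies (1.16%, 0.240 to 3.36). For GAGAGAGA, with overlapping copies counted once, they were 44 of 1646 intron copies (2.67%, 1.95 to 3.57) and 8 of 986 exon copies (0.811%, 0.351 to 1.59). The intron shares were above the exon shares, and close to or below those elsewhere on the autosomes and on the X chromosome. Of the copies elsewhere on the autosomes (outside the allowed positions) 11.3% of 619 for GCGGAACC, 10.5% of 913 for GGCCGACA and 3.47% of 3455 for GAGAGAGA had a strong summit, and on the X chromosome 22.9% of 341, 20.99% of 405 and 3.81% of 1050 did. In the longer list of all 30000 pooled peaks, 92 intron copies (23.7%) and 24 exon copies (10.7%) of GCGGAACC had a summit. In the replicates' own lists, 31 and 12 copies of GCGGAACC (intron 7.99%, exon 5.36%) had a summit in replicate 1, and 99 and 24 (25.5% and 10.7%) in replicate 2, whose list is longer.

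The intron summits with GCGGAACC had a median signal of 14.4, against 10.7 for the other intron summits. For GGCCGACA the medians were 14.5 and 10.7, and for GAGAGAGA 12.1 and 10.8. Signal chose the peaks and GCGGAACC and GGCCGACA came from strong peaks of these data, so the higher signal is a description only. The summits with GCGGAACC were also richer in G and C, with a median of 52.7% against 42.8% of the window of 100 bp either side. The part that base composition plays in these counts was not tested. Of the 37, replicate 1 held 16 (43.2%) and replicate 2 held 28 (75.7%) among its own 3000 strongest peaks, with a summit at most 200 bp away. The shares were 33.9% and 57.0% of the intron summits without the word, and 42.1% and 61.7% of all 3000. For GGCCGACA the shares with and without the word were 8 of 32 (25%) and 142 of 400 (35.5%) in replicate 1, and 71.9% and 57.5% in replicate 2. For GAGAGAGA they were 40.5% of 37 and 34.2% of 395 in replicate 1, and 64.9% and 58.0% in replicate 2. GCGGAACC was at 9 of 34 intron summits in ranks 1 to 381, at 12 of 78 in ranks 382 to 1000, at 8 of 152 in ranks 1001 to 2000 and at 8 of 168 in ranks 2001 to 3000. Over all 3000 its share was 6.0%. The other strong peaks were not counted by rank group, so this order cannot be called particular to intron summits.

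The intron share of the gene-body summits was high at the top of the list and lower further down. Over all 794 peaks the intron share was 54.4% (exact 95% interval 50.9 to 57.9, for the counting of peaks only), beside 54.7% of the 44.1 Mb that the positional part of the rule allows (24.14 Mb of introns and 20.01 Mb of exons). Among the ranks 1 to 381, the length of the list that the authors deposited as passing an irreproducible discovery rate threshold, 34 of 41 gene-body summits were intronic (82.9%, 67.9 to 92.9). In ranks 382 to 1000, 78 of 100 were (78.0%, 68.6 to 85.7). The share was 55.9% of 272 in ranks 1001 to 2000 and 44.1% of 381 (39.0 to 49.2) in ranks 2001 to 3000. Beyond the rule's threshold it was 40.4% of 1219 summits in ranks 3001 to 6000, 42.99% of 2640 in ranks 6001 to 12000 and 44.7% of 8376 in ranks 12001 to 30000. The intron share was thus above that of the bases in the 1000 strongest and below it from rank 2001 on. The same order was seen when each replicate's own list was ranked. In replicate 1 the share was 78.0% of 41, 62.4% of 109, 54.2% of 286 and 53.6% of 306 in the first 4 rank groups. In replicate 2 it was 82.0% of 50, 59.2% of 147, 44.5% of 366 and 41.5% of 402.

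**Figure D1:**
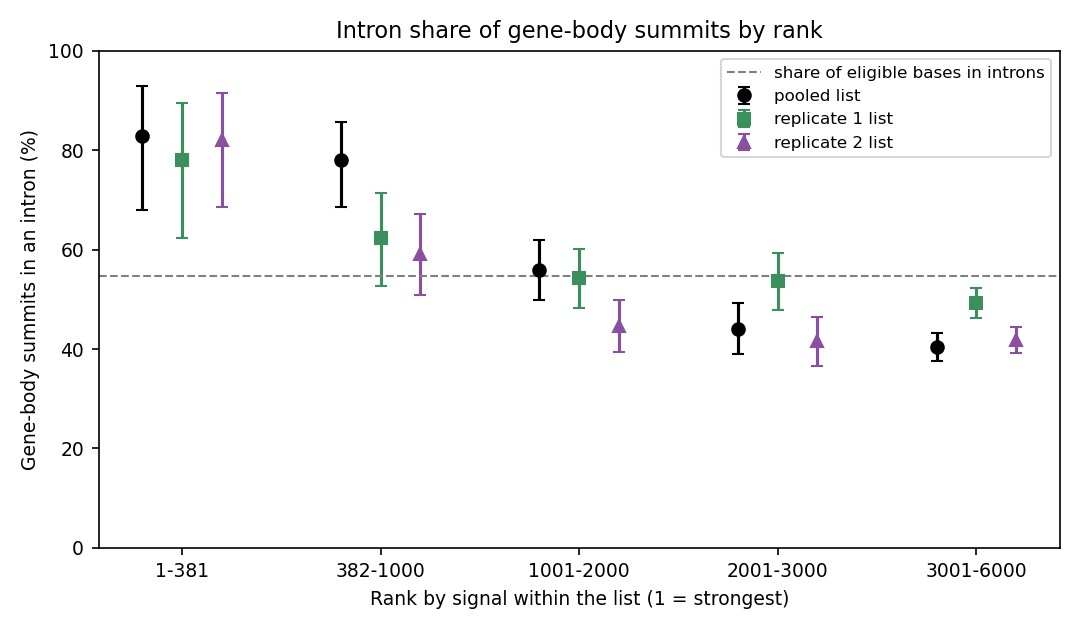
Share of gene-body summits that lie in an intron (y axis, %), by rank group within the pooled list and each replicate's list (x axis), with exact 95% intervals. The dashed line is the 54.7% of allowed bases that are intronic; the pooled share is 82.9% in ranks 1 to 381 and 44.1% in ranks 2001 to 3000.

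Several of the strongest intron summits lay near the 5′ end of small unclassified ncRNA genes, a class that the rule does not remove. The highest was in intron 4 of CD4.11 (WBGene00044542), with a pooled signal of 196.7 (119.1 in the replicate 1 list and 74.6 in the replicate 2 list). It lay 54 bp upstream of the ncRNA gene CD4.18, whose length is 134 bp. A further summit in the same gene, with a pooled signal of 29.7 (20.2 and 10.6), was 35 bp upstream of the ncRNA gene CD4.17. In W01D2.3 a summit with a pooled signal of 171.2 (87.2 and 87.3) lay 39 bp upstream of the 78 bp ncRNA gene W01D2.8. In gpa-1, which encodes a G protein alpha subunit, a summit had a pooled signal of 128.1 (36.9 and 92.3). It lay 54 bp upstream of T19C4.16, on the strand opposite to gpa-1, and 187 bp from an annotated start of a gpa-1 transcript. Past the 5′ end and inside the ncRNA gene lay the summits in hecw-1, which encodes a ubiquitin ligase, with a pooled signal of 42.5 (10.4 and 32.6), 121 bp downstream of the start of F45H7.11, and in T28B11.1, with 40.3 (13.2 and 27.9), 79 bp downstream of the start of T28B11.18. The upstream position was also that of the strongest exon summit, in the 3′ UTR of the homeobox gene ceh-8, with a pooled signal of 250.6 (115.5 and 134.2), 29 bp upstream of the 76 bp ncRNA gene ZK265.11.

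Over all intron summits, 52 of 432 (12.04%, 9.12 to 15.5) had the 5′ end of an ncRNA gene within 300 bp, where 3.12% of allowed intron bases did. Over exon summits the counts were 8 of 362 (2.21%, 0.959 to 4.31), beside 1.40% of allowed exon bases. The median signal of these intron summits was 12.1, against 10.7 for the 380 others. Of the 52, 28 lay upstream of the ncRNA 5′ end, and 19 of the ncRNA genes were on the strand of the host gene. Of the 34 intron summits in ranks 1 to 381, 8 belonged to this group and the other 26 had no ncRNA gene start near them.

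Internal starts of alternative transcripts were also near some summits. An annotated start of a protein-coding transcript that is not the gene's outermost 5′ end lay within 300 bp of 56 intron summits (12.96%, 9.94 to 16.5) and 41 exon summits (11.3%, 8.25 to 15.1). The shares of allowed bases were 5.34% in introns and 5.49% in exons. Of the 432 intron summits, 246 (56.9%, 52.1 to 61.7) lay in introns of at least 1000 bp, which hold 45.8% of allowed intron bases. The first intron of the longest transcript held 121 (28.0%, 23.8 to 32.5), beside 18.6% of the bases. The median intron summit was 2136 bp from the nearest listed gene start and the median exon summit 1414 bp.

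Among the strong intron summits with no ncRNA start within 300 bp, W04A8.6 had a pooled signal of 183.5 (96.8 in the replicate 1 list and 85.1 in the replicate 2 list) with GCGGAACC near its summit. C33B4.4 had a pooled signal of 114.8 (51.99 and 60.97). The summit in Y46G5A.34 (pooled 85.8; 30.3 and 50.3) has 2 near-identical copies elsewhere in the genome, and how reads were shared among them is unknown. All of these were found in both replicates. In hum-2, which encodes an unconventional myosin, the pooled signal was 70.4 (21.2 and 52.6), and in cng-1, which encodes a cyclic nucleotide-gated channel subunit, it was 68.3 (18.8 and 48.1). The chemoreceptor gene sre-45 had 55.6 (26.3 and 29.8). The microtubule-organising gene noca-1 had 53.6 (17.8 and 35.8), and the C-type lectin gene clec-80 had 52.3 (26.6 and 23.3). The summits in hum-2 and cng-1 lay 211 bp and 115 bp from an annotated start of the host's own transcripts. The other summits named in this paragraph lay 532 bp or more from such a start. The signals of the replicate lists are on no stated scale and are read here within a list only.

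Of the 12 strongest exon summits 10 lay outside coding sequence, although most exon summits lay in it. Of the 362 exon summits, 299 were in coding sequence (82.6%, beside 86.1% of allowed exon bases), 33 in 3′ UTRs, 27 in 5′ UTRs and 3 in transcripts with no coding part. The highest signal of any coding-exon summit was 29.4, in unc-33, which encodes a protein of axon outgrowth (14.04 and 17.14 in the lists of replicates 1 and 2). After ceh-8, the next exon summits were in the 3′ UTR of bed-2, a BED zinc finger gene, with a pooled signal of 181.7 (77.8 and 105.3), and in srd-70, a chemoreceptor gene, with 105.3 (29.4 and 74.01). The summits in srd-70 and ash-2 are exonic in transcripts with no coding part. Below unc-33 came T10B5.3 (28.3), ash-2 (25.1), which encodes a subunit of a histone methyltransferase complex, F37A8.5 (21.4), ddo-2 (21.04), C34C12.2 (19.6), the chemoreceptor gene srsx-8 (19.4), gpi-1 (18.3), which encodes a glycolytic isomerase, and nurf-1 (18.2), which encodes a nucleosome remodelling factor. Of these, gpi-1 was the one in coding sequence, and it had no summit within 200 bp in the replicate 1 list. Some of the exon summits named here lay near an annotated start of the host's own transcripts. The distance was 36 bp in gpi-1, 62 bp in unc-33, 97 bp in ash-2 and 98 bp in nurf-1. It was 168 bp in ddo-2, 271 bp in T10B5.3 and 944 bp or more at the others. Only 1 of the 41 gene-body summits in ranks 1 to 381 was in coding sequence.

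The median pooled signal was 10.8 (order-statistic 95% interval 10.5 to 11.2; range 8.94 to 196.7) for intron summits and 9.91 (9.77 to 10.1; 8.94 to 250.6) for exon summits. Both were below the median of the autosomal promoter peaks (12.2), the intergenic peaks (11.6) and all 3000 (11.4). The upper quartile was 13.9 for intron and 11.1 for exon summits, so the classes differed mainly in their upper part. The gene-body peaks thus stood close to the threshold. Just inside it were summits in nop-1 at rank 2993 (8.942) and plr-1 at rank 2994 (8.941), and just outside it were summits in hmp-1 at rank 3006 (8.924) and cof-2 at rank 3010 (8.922). Peak width held little information, since 782 of the 794 peaks were listed as 340 bp wide.

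The 2 replicates shared few of these summits, and more of the intron than of the exon ones. In each replicate the 3000 strongest peaks of its own list were taken, and a match was a summit at most 200 bp away. In both replicates 78 of 432 intron summits (18.1%, 14.5 to 22.01) and 22 of 362 exon summits (6.08%, 3.85 to 9.06) were matched, against 23.7% of all 3000 pooled peaks. Replicate 1 matched 150 intron summits (34.7%, 30.2 to 39.4) and 59 exon summits (16.3%, 12.6 to 20.5), against 42.1% of all 3000. Replicate 2 matched 253 intron summits (58.6%, 53.8 to 63.2) and 204 exon summits (56.4%, 51.1 to 61.5), against 61.7% of all 3000. Neither replicate matched 107 intron summits (24.8%) and 121 exon summits (33.4%), against 19.9% of all 3000. The pooled list contains the reads of both replicates, and each replicate list was made with a further file that both share, so these matches are not independent of one another.

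**Figure D2:**
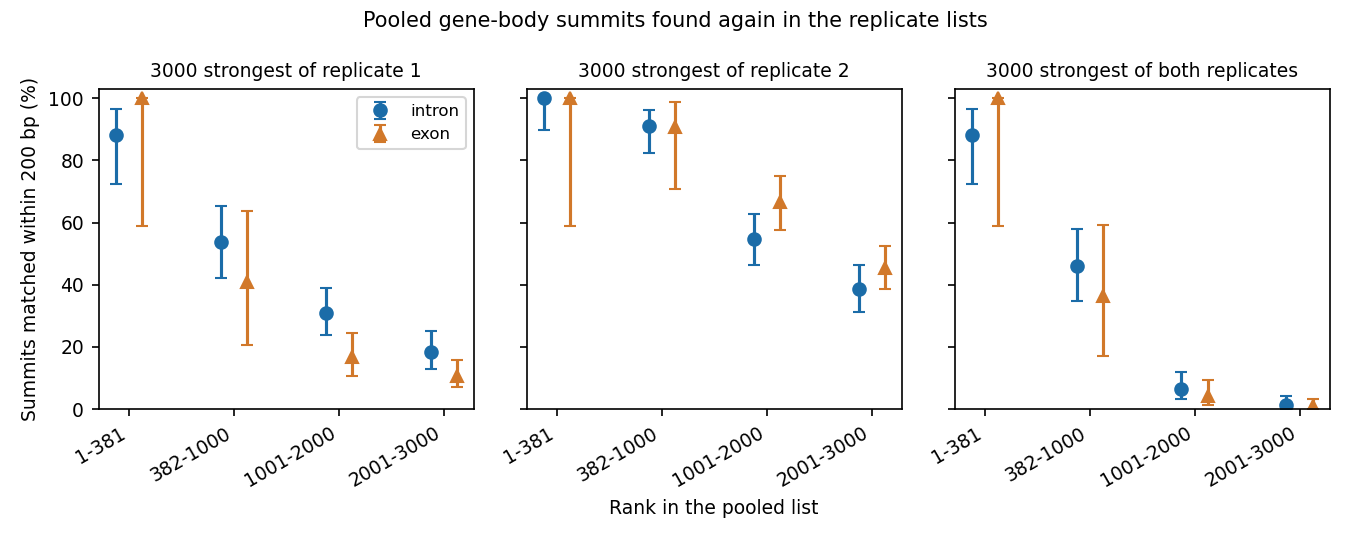
Share of pooled gene-body summits matched at most 200 bp away in the upper 3000 peaks of replicate 1, of replicate 2 and of both (y axis, %), by pooled rank group (x axis), for intron summits (circles) and exon summits (triangles), with exact 95% intervals. In ranks 1 to 381 both replicates matched 30 of 34 intron and 7 of 7 exon summits, and in ranks 2001 to 3000 they matched 2 of 168 and 2 of 213.

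The matched share was highest at the top of the pooled list. In both replicates, 30 of 34 intron summits and 7 of 7 exon summits of ranks 1 to 381 were matched. In ranks 382 to 1000 the counts were 36 of 78 intron summits and 8 of 22 exon summits. In ranks 1001 to 2000 they were 10 of 152 and 5 of 120, and in ranks 2001 to 3000 they were 2 of 168 and 2 of 213. Within replicate 1 the intron share was above the exon share in the last 3 of these groups, at 53.8% and 40.9%, 30.9% and 16.7%, and 18.5% and 10.8%. Within replicate 2 the intron share was below the exon share in the last 2 groups, at 54.6% and 66.7%, and 38.7% and 45.5%. With the full list of replicate 1 (11042 peaks), 234 intron summits (54.2%) and 132 exon summits (36.5%) had a match, against 60.1% of all 3000. With that of replicate 2 (30000 peaks), 414 intron summits (95.8%) and 347 exon summits (95.9%) did, against 93.9% of all 3000. Among summits in both full lists, Spearman's rho of the replicate signals was 0.22 for 218 intron summits and 0.04 for 123 exon summits, and 0.36 for 1638 of all 3000, each across peaks of the same 2 libraries.

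**Figure D3:**
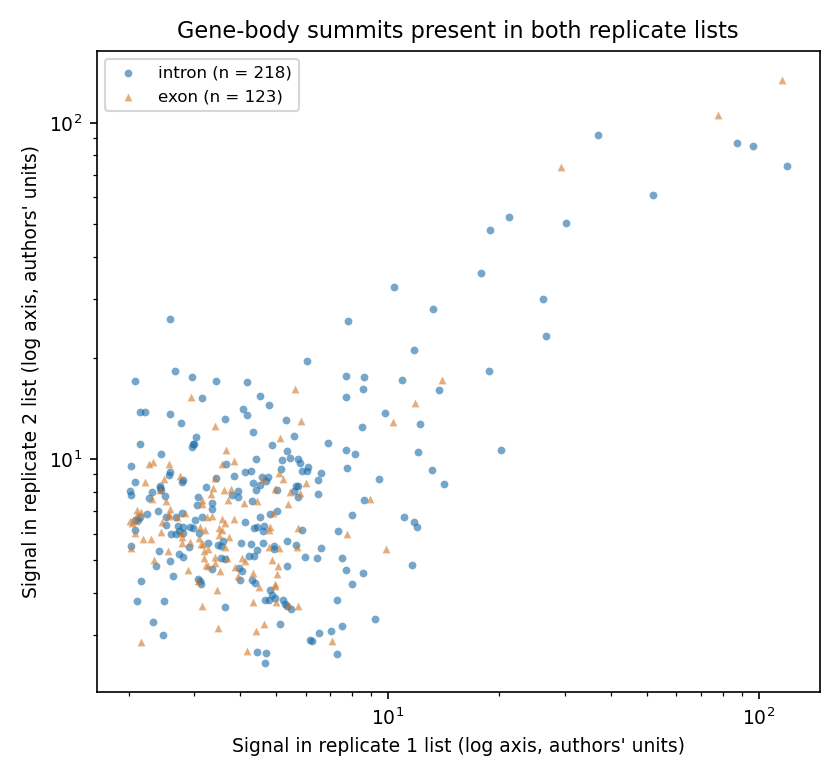
Signal in the replicate 2 list (y axis, log) against signal in the replicate 1 list (x axis, log), in the authors' units, for the 218 intron summits (circles) and 123 exon summits (triangles) with a summit within 200 bp in both full lists. The strongest summits run up to 119.1 in replicate 1 and 134.2 in replicate 2 and are high in both, while most points form a cloud at low signal.

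Base composition at the summits was similar in both classes and high for introns. The median GC share within 100 bp of the summit was 43.3% (42.8 to 44.3) at intron summits and 42.3% (41.8 to 43.3) at exon summits. The GC share of all allowed bases was 32.1% in introns and 41.2% in exons. Those shares count single bases of a class, while a summit window can extend past the intron or exon that holds the summit. The distance from an intron summit to the nearer exon had a minimum of 1 bp and a lower quartile of 138 bp. Windows 1000 bp to either side had a median of 37.3% for intron summits and 37.1% for exon summits. The summit window was above both of its flanks at 252 intron summits (58.3%) and 208 exon summits (57.5%). That share was 61.2% over all strong peaks, 62.7% for intergenic peaks and 46.9% for autosomal promoter peaks. A summit window richer in G and C than its flanks was thus not particular to gene-body summits. Autosomal promoter peaks had a median of 39.8% and intergenic peaks one of 43.8%. The median over all strong peaks was 43.3%, the same as at intron summits. The small difference between intron and exon summits was not stable: in the replicate 1 list taken alone the medians were 38.8% in introns and 39.8% in exons, and with 25 bp either side of the summit both were 45.1%. In the replicate 2 list alone they were 43.3% and 42.8%. With the 1500 strongest pooled peaks the medians were 46.3% in introns and 42.8% in exons, and with the 6000 strongest they were 41.3% and 42.3%, the reverse order.

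**Figure D4:**
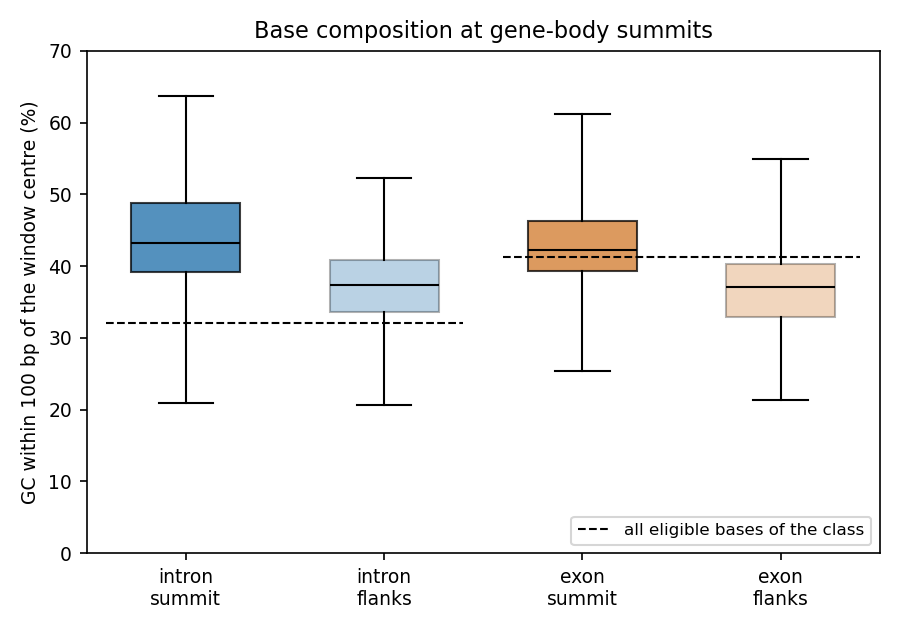
GC share (y axis, %) within 100 bp of the summit and the mean of windows of that size centred 1000 bp either side, for 432 intron and 362 exon summits. Boxes span the quartiles with the median as a line, whiskers reach the lowest and highest value, and dashed lines mark all allowed bases of the class (32.1% in introns, 41.2% in exons); the intron summits have a median of 43.3%.

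Intron summits of high rank were the richest in G and C. Their median was 48.5% in ranks 1 to 381, 48.3% in ranks 382 to 1000, 42.8% in ranks 1001 to 2000 and 41.8% in ranks 2001 to 3000. Intron summits matched in both replicates had a median of 48.0%, those matched in replicate 2 alone 44.3%, those in replicate 1 alone 42.3% and those in neither 41.3%. The exon medians by rank were 50.2% (7 summits), 41.0%, 43.3% and 41.8%, with no such order past the first group. How far base composition bears on the pull-down or the sequencing was not tested.

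The 794 summits lay in 693 host genes, which is 4.02% of 17242 autosomal protein-coding genes, and 18 summits lay in 2 overlapping genes. Of the hosts, 608 held 1 summit, 61 held 2, 18 held 3 and 6 held at least 4. These 6 genes are 19089 to 33649 bp long. The phosphodiesterase gene pde-3, 33649 bp long, held 7 intron summits with pooled signals between 9.06 and 24.2, and 2 of them were matched in both replicates. The gene daf-5, which encodes a Sno/Ski-type factor of the dauer pathway, held 5 intron summits between 12.01 and 18.99, of which 4 were matched in both. Of these 5, 4 were in its first intron of 14446 bp, among them the GA-rich summit printed above. The gene pqn-41, which encodes a glutamine- and asparagine-rich protein, held 4 between 12.7 and 28.97, Y48C3A.5 held 4 between 11.1 and 26.4, and the kinase gene mbk-2 held 4 between 8.95 and 20.4. The phosphatase regulator gene ppfr-1 held 3 intron summits and 1 exon summit between 11.7 and 15.9, none of them matched in both replicates.

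Host genes were longer than the typical gene. The median host length was 8396 bp for intron summits and 3928 bp for exon summits, beside 1964 bp for all autosomal protein-coding genes. Per allowed base the density was 17.6 summits per Mb in genes of up to 1205 bp, 14.5 in genes up to 1964 bp, 14.99 up to 3496 bp, 18.7 up to 6586 bp and 19.8 in longer genes. By chromosome it was 14.5 per Mb on I, 15.2 on IV, 18.9 on V, 19.5 on III and 21.3 on II. Few hosts also had a strong summit at their own start: 47 of 693 (6.78%) had one of the 3000 strongest summits within 300 bp of their 5′ end, beside 4.65% of all autosomal protein-coding genes. Among genes at least as long as the median host, the shares were 4.32% of 347 hosts and 5.91% of 2623 genes.

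Host genes of several kinds were set beside the bases they offer. Muscle genes had 7 summits (0.882% of all, beside 0.961% of the bases) in 4 of 34 genes, namely unc-52 (perlecan, highest signal 10.5), zyx-1 (zyxin, 10.02), myo-3 (a myosin heavy chain, 9.59) and unc-22 (twitchin, 9.32). Nuclear hormone receptor genes had 14 (1.76%, beside 1.34%) in 13 of 246, led by nhr-201 (13.8), nhr-130 (12.5) and nhr-66 (12.5). Homeobox genes had 7 (0.882%, beside 0.529%) in 6 of 66, and after ceh-8 came unc-62 (15.01) and ceh-16 (10.8). Other developmental regulators had 6 (0.756%, beside 0.623%) in 5 of 57, among them daf-16 (the FOXO factor, 11.6), hlh-30 (11.5) and the ETS factor gene lin-1 (11.2). Chemoreceptor genes had 22 (2.77%, beside 3.93%) in 21 of 1276, led by srd-70, sre-45 and srsx-8. Genes of ion channels and the synapse had 10 (1.26%, beside 2.01%) in 9 of 144, led by the innexin genes inx-13 (16.9) and inx-11 (16.4) and by the synaptotagmin gene snt-3 (13.03). Cuticle collagens had 2 (0.252%, beside 0.363%), in col-130 (10.1) and col-147 (9.46), and germline genes had 2 (0.252%, beside 0.344%), in glh-2 (9.89) and pgl-2 (8.94). No summit lay in ribosomal protein genes (79 genes, 0.0580% of the bases), intestine and yolk genes (11, 0.0590%) or genes of SNAPc and RNA polymerase III (18, 0.167%), which offer so few bases that a count of 0 says little. These are counts beside bases, with no test.

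The genes of the transgene held no such summit. The best pooled peak at snpc-4 (chromosome I, 8962322 to 8966129) was rank 383 with a signal of 21.3 and had its summit just upstream of the annotated start, at 8962175, and at unc-119 it was rank 7586 with a signal of 6.51. Repeated sequence was rare among the gene-body summits. At 13 intron summits (3.01%) and 2 exon summits (0.552%) the sequence within 100 bp had a copy elsewhere, at 90% identity or more over at least 80% of its length, against 2.13% of the other strong peaks and 2.07% of all 3000. The most copied were in dcs-1 (91 other copies), in the exon of H14N18.4 (76) and in Y48A6C.4 (72).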

How the data were processed

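Peak lists in the 10-column narrowPeak format were used, on ce11. Each line gives a signal that the authors deposited on no stated scale, the −log10 q-value the authors deposited, and the summit. Per the labels, 2 biological replicates form 1 group. Per the deposited file records, the pooled list came from both replicates' alignments and each replicate list from its own, each with a further file. The sources used here name no aligner or peak caller. The −log10 q-value was not used to rank, since 90 of the 794 peaks share its highest value. Read depth is unknown, so intervals cover the counting of peaks only.

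Summits were ranked by signal within a list and placed on Ensembl 115 genes with Python 3.11.15, pandas 2.3.3 and numpy 2.4.6; exact Clopper-Pearson 95% intervals came from scipy 1.17.1. An allowed base is a position that passes the positional part of the rule. Copies were sought with blastn 2.17.0. The choice of peaks, the classes and the matching were tested on simulated summits. The members, words and gene lists were chosen with earlier results of these data known, and the comparison of words and copies with the 2206 other strong peaks was added after their shares had been seen. The text names the hosts of the 12 strongest intron and exon summits, hosts with at least 4 summits, up to 3 leading hosts per list, snpc-4, unc-119 and the peaks at the threshold; other genes were named after their values were seen, for the printed sequences, the paired words, ncRNA neighbours and copies. A summit in several genes is named by the gene in whose exon it lies, then by the shortest. Alternatives varied the number of peaks, distances, exon definition, replicates, repeats and windows.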

Additional observations from a re-analysis of the deposited data

How the results depend on the processing

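Of 114 values recomputed under 20 alternative settings, 86 stayed within the interval of the reported value (counts within 1.5 times) and 28 moved outside it. With the 1500 strongest pooled peaks there were 259 summits, 71.04% of them intronic; the intron and exon values were 14.61 and 12.65 for median signal, 40.2% and 24.0% for matches in both replicates, and 46.3% and 42.8% for GC. With the 6000 strongest there were 2013 summits, 45.9% intronic, with signals of 8.75 and 8.19, matches of 8.44% and 2.02%, and GC of 41.3% and 42.3%. The number and signal of the peaks follow from the threshold itself; for the other values the cause was not tested. Leaving out a replicate gave 742 to 965 summits, 47.5% to 56.5% intronic, with median GC of 38.8% to 43.3% in introns and 39.8% to 42.8% in exons; the cause was not tested, and signal and matches have no value there. Counting coding sequence alone as exon gave 62.3% intronic and 3.01% of exon summits matched. Matching within 100 bp gave 13.7% of intron summits, the full lists 50.5% of intron and 34.0% of exon summits, and the 6000 strongest of each replicate 26.6% and 14.4%. GC was 45.1% in both classes within 25 bp, and 41.3% and 40.5% within 250 bp. The intron value was above the exon value in 12 of 12 settings for signal, in 16 of 16 for matches and in 13 of 16 for GC. No paired analysis was possible because the samples form 1 group. Without read counts, the depth behind a single peak cannot be given.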
